A study of Homo sapiens with 6 samples.

Results

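The genes described here are 10 members of the RGS family, RGS1, RGS2, RGS3, RGS10, RGS12, RGS13, RGS14, RGS16, RGS18 and RGS19, out of 18417 genes measured in RL cells. RL cells, an established line from a human B-cell lymphoma with the t(14;18) translocation, were profiled without treatment (3 arrays) and after LY317615 (3 arrays), a kinase inhibitor also called enzastaurin that was developed against protein kinase C beta. All sample titles carry 48 h, the labels give a dose of 2.5 mM whose unit could not be checked here, and no vehicle is named for the untreated cells. The members were listed by name with their difference between treated and untreated cells already known, so these differences are given as a description, with no test. Each member was read by 1 probe set, a group of probes summarised to 1 value on an Affymetrix Gene 1.0 ST array. No member had a further probe set annotated to it alone.

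RGS proteins (regulators of G-protein signalling) share a domain that speeds the hydrolysis of GTP by the alpha subunit of heterotrimeric G proteins, and so shorten the signal of receptors such as those for chemokines. The R4 subfamily (here RGS1, RGS2, RGS3, RGS13, RGS16 and RGS18) consists mostly of small proteins with little beyond that domain. The R12 subfamily (RGS10, RGS12, RGS14) includes large scaffolds that also bind Ras-like GTPases, and RGS19 belongs to the RZ subfamily. In B cells, RGS1 and RGS13 are known as brakes on the response to CXCL12 and CXCL13 and are typical of the germinal centre.

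The arrays showed a B-cell line. The 6 B-cell markers analysed, among them MS4A1, CD79A and PAX5, lay between the 87.5th and the 98.9th percentile of untreated log2 intensity. The 5 T-cell markers lay between the 5.32nd and the 28.4th. Monocyte and macrophage markers ran from the 19.2nd to the 32.1st. Erythroid markers ran from the 21.6th to the 49.5th and NK-cell markers from the 0.152nd to the 56.0th. The summed log2 intensity of the B-cell markers went from 63.7 to 60.6 with LY317615, that of the T-cell markers from 21.5 to 22.4 and that of the 5 monocyte and macrophage markers from 24.7 to 27.0. The sums of erythroid and NK-cell markers went from 16.1 to 15.8 and from 20.1 to 19.9. The 4 germinal-centre markers analysed summed to 38.9 and 39.6 but moved apart, BCL6 from 11.98 to 10.75 and MYBL1 from 9.63 to 8.80, against MME from 9.56 to 11.72 and CXCR5 from 7.71 to 8.33. No marker is listed at 0, and the part of these shifts in the results was not tested. Nothing says that replicates came from separate cultures, and p-values therefore reflect array-to-array spread alone, part of which may be technical. In a bulk sample, fewer cells expressing a gene and less RNA per cell cannot be told apart.

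Members differed from each other in direction. In treated cells 4 of the 6 R4 members, RGS1, RGS13, RGS2 and RGS16, were lower on every array than on any untreated array, and all 3 R12 members were higher on every array, RGS14 the most and RGS12 by so little that its sign turned under cyclic loess. The sizes ran from a log2 difference (treated minus untreated) of -2.07 for RGS1 to 0.49 for RGS14. RGS3, RGS18 and RGS19 overlapped between the groups. The groups thus did not overlap in 7 of 10 members, 4 lower and 3 higher, where 49.8% of all genes did not overlap, 27.8% lower and 22.0% higher. In limma with Benjamini-Hochberg adjustment 5 of the 10 passed an adjusted p of 0.05, 4 lower and 1 higher, where 35.7% of all genes passed, 21.4% lower and 14.2% higher. RGS14 was the 1 called higher, and RGS10 and RGS12 did not pass. Nothing is read from these counts, since the same contrast was known when the members were listed. The median difference was -0.13 over the 10 members and 0.02 over all genes. The array reads 10 R4 genes. Those outside the members, RGS4, RGS5, RGS8 and RGS21, were dim, at 3.57 to 5.17 untreated. They differed by 0.14, 0.00, 0.09 and 0.16, and none was lower on every treated array.

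**Figure D1:**
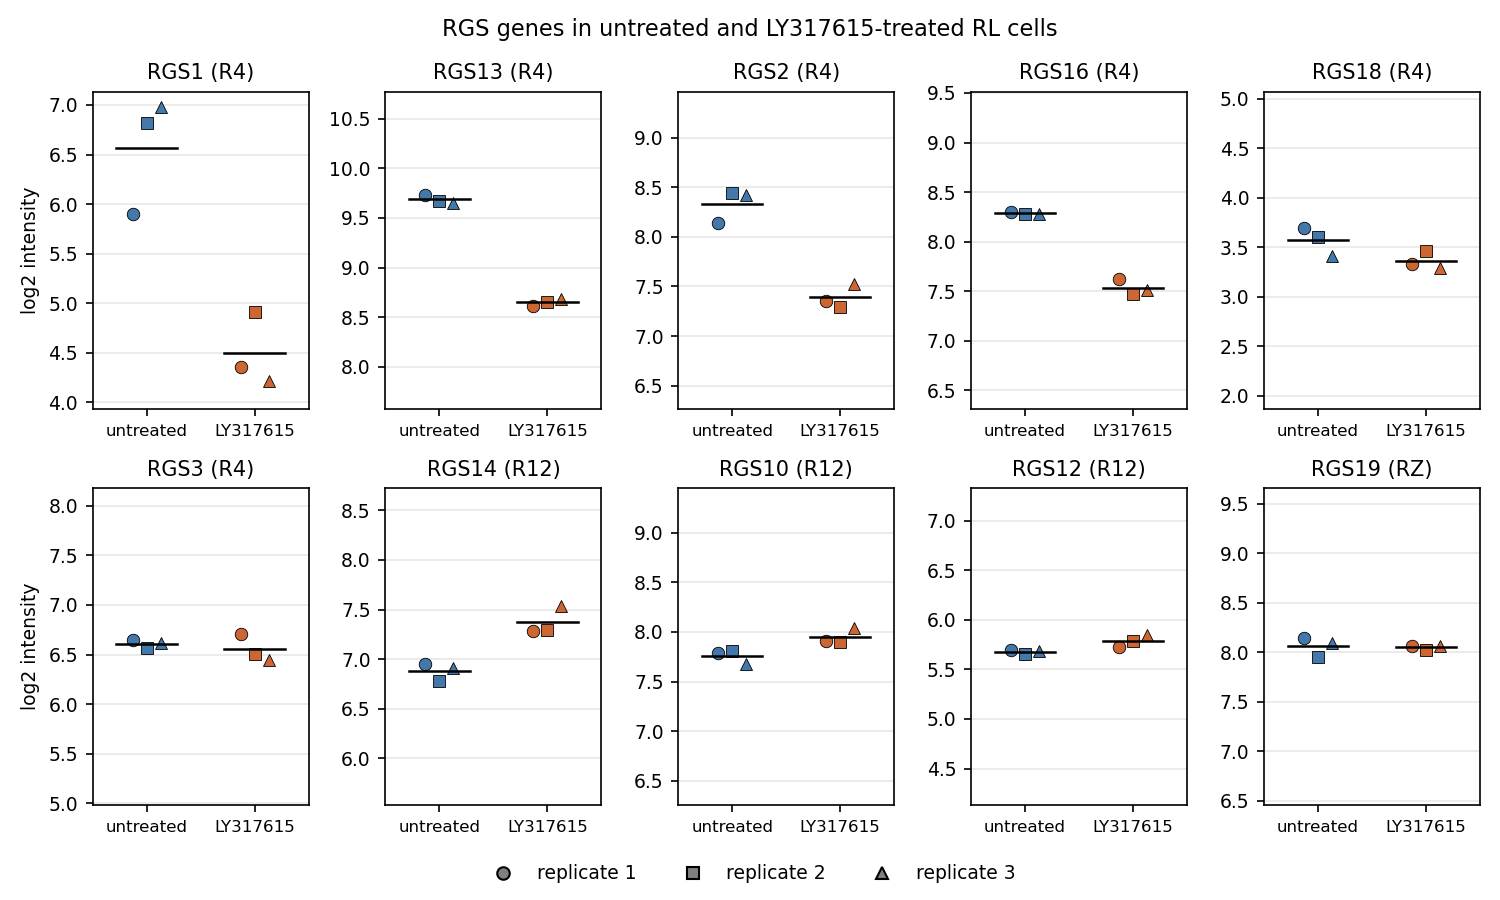
Log2 intensity (y axis, a span of equal length in every panel) of each of the 10 RGS genes on the 3 untreated and the 3 LY317615 arrays; symbols mark the replicate number, horizontal lines the group means. RGS1, RGS13, RGS2 and RGS16 sit lower on all treated arrays and RGS14 higher, while RGS1 alone spreads widely within both groups, from 5.90 to 6.98 untreated and from 4.21 to 4.91 treated.

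RGS1 (probe set 7908388), a brake on chemokine-receptor signals in B cells, had log2 intensities of 5.90, 6.82 and 6.98 on untreated arrays 1 to 3 and of 4.36, 4.91 and 4.21 on treated arrays 1 to 3. Untreated array 1 was the lowest of its group and treated array 2 the highest of its own, and 0.99 still lay between the nearest arrays of the groups. The means were 6.57 ± 0.58 and 4.49 ± 0.37 (SD, n = 3), a log2 difference of -2.07 ± 0.27 (SE) or 4.21-fold lower. Only 5 of the 18417 genes had a lower difference. The treated mean was near that of untreated RGS4 (4.56, at the 21.3rd percentile). With no detection call at hand, it could not be told whether treated RGS1 was above background. The size of the fold and its rank are limited by this. RGS1 was also among the least even genes of the untreated arrays: its SD lay at the 99.9th percentile of all genes, against SDs of 0.01 to 0.17 for the other members, and at the 98.9th among treated arrays. Leaving out untreated array 1 gave a difference of -2.41, and leaving out any single array gave -2.41 to -1.87.

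RGS13 (probe set 7908397), a small R4 protein typical of germinal-centre B cells and mast cells, showed the opposite evenness. Its log2 intensities were 9.74, 9.68 and 9.66 untreated and 8.61, 8.66 and 8.69 treated, with SDs of 0.04 in both groups. The difference was -1.04 ± 0.07 (SE), 2.05-fold lower. RGS2 (probe set 7908409), which acts preferentially on Gq alpha subunits, had 8.14, 8.44 and 8.42 untreated and 7.35, 7.29 and 7.53 treated. As for RGS1, untreated array 1 was the lowest of its group. The difference was -0.94 ± 0.11 (SE), 1.92-fold lower. RGS16 (probe set 7922717), an R4 protein induced on lymphocyte activation, had 8.30, 8.28 and 8.28 untreated and 7.63, 7.47 and 7.51 treated. Its untreated arrays were the most even of all members (SD 0.01), and the difference was -0.75 ± 0.08 (SE), 1.68-fold lower. These sizes shifted with the scaling. With equal array medians the differences were -1.12 for RGS13, -1.02 for RGS2 and -0.83 for RGS16. Under cyclic loess they were -0.88, -0.84 and -0.64.

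These 4 genes lie on chromosome 1. The 250 bases upstream of the annotated start are given 5′ to 3′ on the gene's strand, from RefSeq (GRCh38.p14), because these are the members whose RNA was lower together; capitals mark any match to the motifs named after them. All 10 members matched the promoter table. RGS1 is at chr1:192575523-192575772 (plus strand), RGS13 at chr1:192635897-192636146 (plus), RGS2 at chr1:192808789-192809038 (plus) and RGS16 at chr1:182604390-182604639 (minus).
RGS1: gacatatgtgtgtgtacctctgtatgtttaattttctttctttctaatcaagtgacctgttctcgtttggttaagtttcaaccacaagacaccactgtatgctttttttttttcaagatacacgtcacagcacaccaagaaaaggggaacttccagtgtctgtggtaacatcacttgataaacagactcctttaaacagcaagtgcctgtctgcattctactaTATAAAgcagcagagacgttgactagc
RGS13: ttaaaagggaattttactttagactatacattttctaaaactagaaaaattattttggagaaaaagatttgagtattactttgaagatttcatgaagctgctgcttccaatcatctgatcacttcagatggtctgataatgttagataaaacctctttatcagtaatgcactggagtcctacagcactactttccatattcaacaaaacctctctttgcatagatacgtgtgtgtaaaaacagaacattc
RGS2: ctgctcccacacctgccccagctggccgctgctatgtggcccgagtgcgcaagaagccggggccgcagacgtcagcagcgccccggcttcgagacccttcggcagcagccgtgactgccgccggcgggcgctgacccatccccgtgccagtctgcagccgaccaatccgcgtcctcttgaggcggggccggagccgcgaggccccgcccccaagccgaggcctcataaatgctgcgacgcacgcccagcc
RGS16: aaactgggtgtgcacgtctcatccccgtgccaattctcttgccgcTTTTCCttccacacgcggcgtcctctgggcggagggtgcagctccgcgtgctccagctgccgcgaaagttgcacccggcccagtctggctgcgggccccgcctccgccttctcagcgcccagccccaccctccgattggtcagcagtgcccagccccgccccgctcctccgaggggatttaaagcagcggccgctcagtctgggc
The share of G and C was 39.2% for RGS1 and 32.0% for RGS13, but 72.8% for RGS2 and 68.4% for RGS16, with a median of 58.0% over 35116 promoters. Matches were sought on both strands to 6 motifs. These were the cAMP response element (CRE), spelled TGACGTCA, the AP-1 site, spelled TGANTCA, the FOXO site, spelled GTAAACA, the E-box, spelled CACGTG, the TATA box, spelled TATAAA, and the NFAT core, spelled GGAAAA. No matches overlapped in the 4 windows. RGS1 held the TATA box at positions -27 to -22 from its start, a motif found in 10.7% of all promoters. RGS16 held the NFAT core on the opposite strand at -205 to -200, a motif found in 21.2%. Neither RGS13 nor RGS2 held any of the 6 in this window. No motif was shared among the 4 genes. The CRE, AP-1, FOXO and E-box motifs, found in 1.65%, 6.57%, 2.98% and 6.34% of promoters, were in none of these windows. Members outside these 4 held matches too, over all their listed starts. RGS3 held the TATA box and the E-box, RGS12 the NFAT core and RGS19 the E-box.

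The order of genes along chromosome 1 places RGS18, RGS21, RGS1, RGS13 and RGS2 next to each other with no other protein-coding gene between them, in the RefSeq annotation. Within this run the 3 genes at one end, RGS1, RGS13 and RGS2, were lower on every treated array. RGS18, known from platelets and their precursors, differed by -0.21 ± 0.09 and RGS21, known from taste cells, by 0.16 ± 0.09 (SE). Both were dim, at 3.57 untreated. With no detection call, it is not known whether a fall like that of the 3 genes could be seen in them. The nearest genes beyond RGS2, chosen after their values were seen, showed small differences: UCHL5, a deubiquitinase gene, fell by 0.23 (SE 0.07, adjusted p = 0.042 in limma), and RO60, GLRX2 and CDC73 differed by -0.15, -0.01 and -0.14 without passing. On the other side BRINP3, PLA2G4A, PTGS2 and PDC differed by -0.17 to 0.05 and did not pass. They were dim, at 2.83 to 3.58 untreated, and the same limit holds for them. RGS16 and RGS8 are neighbours in a separate place on the chromosome. There RGS16 differed by -0.75, and RGS8, dim at 4.83 untreated, by 0.09 ± 0.09 (SE). Of the genes beside them, also chosen afterwards, DHX9, an RNA helicase gene, fell by 0.24 (SE 0.08, adjusted p = 0.0477 in limma). NPL, at -0.31 ± 0.11, and TEDDM1, RGSL1 and SHCBP1L, at 0.02 to 0.18, did not pass. The genes that did not pass were dim, at 2.78 to 4.83 untreated.

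**Figure D2:**
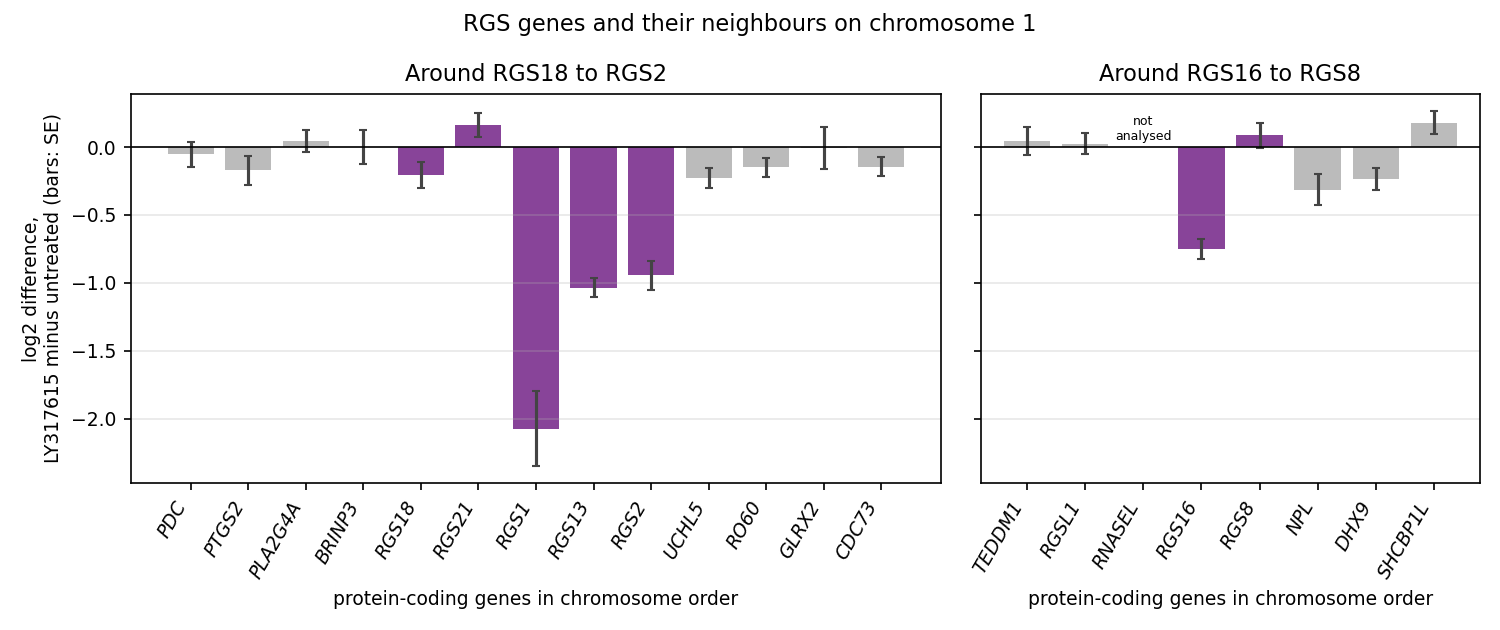
Log2 difference, LY317615 minus untreated, with its SE (y axis), for protein-coding genes in their order on chromosome 1 (x axis, evenly spaced); RGS genes are purple and other genes grey. RGS1, RGS13 and RGS2 stand side by side at -2.07, -1.04 and -0.94, while UCHL5 next to RGS2 is at -0.23 and RGS21 next to RGS1 at 0.16.

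The other R4 members showed little difference. RGS3 (probe set 8157324), a larger R4 gene with several protein forms, had 6.64, 6.56 and 6.61 untreated and 6.71, 6.51 and 6.44 treated, with treated array 1 above all untreated arrays. Its difference was -0.05 ± 0.09 (SE). RGS18 (probe set 7908376) had 3.70, 3.60 and 3.41 untreated and 3.33, 3.46 and 3.29 treated, with treated array 2 above untreated array 3. By mean intensity over the 6 arrays RGS18 was the only member among the dimmest 30% of genes. It lay at the 7.8th percentile of untreated intensity, and no detection call was at hand to say whether it was above background.

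Of the R12 members RGS14 differed most. RGS14 (probe set 8110327), a scaffold that binds Ras and Rap GTPases and holds inactive Gi alpha subunits, had 6.95, 6.78 and 6.91 untreated and 7.28, 7.29 and 7.54 treated. Treated array 3 was the highest, and the difference was 0.49 ± 0.09 (SE), 1.41-fold higher. RGS10 (probe set 7936673), a small protein of lymphoid and myeloid cells, had 7.78, 7.81 and 7.68 untreated and 7.91, 7.90 and 8.04 treated, a difference of 0.19 ± 0.08 (SE). RGS12 (probe set 8093764), the other Ras-binding scaffold, had 5.69, 5.65 and 5.68 untreated and 5.72, 5.78 and 5.85 treated, a difference of 0.11 ± 0.07 (SE). The groups of RGS12 were 0.03 apart at their nearest, and its difference was 0.03 with equal array medians but -0.01 under cyclic loess, so its direction depends on the scaling. RGS10 was higher under both, by 0.11 and 0.30, and RGS14 by 0.41 and 0.52. All 3 R12 members were highest on treated array 3, which had the lowest array weight of the 6 arrays, 0.376; without it the differences were 0.41 for RGS14, 0.15 for RGS10 and 0.08 for RGS12.

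RGS19 (probe set 8067802), an RZ protein of the Golgi and vesicles that acts on Gi alpha subunits, hardly differed. Its log2 intensities were 8.14, 7.96 and 8.09 untreated and 8.07, 8.02 and 8.06 treated, all treated arrays lying inside the untreated range. The difference was -0.01 ± 0.08 (SE), and it went to -0.09 with equal array medians and to 0.11 under cyclic loess.

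**Figure D3:**
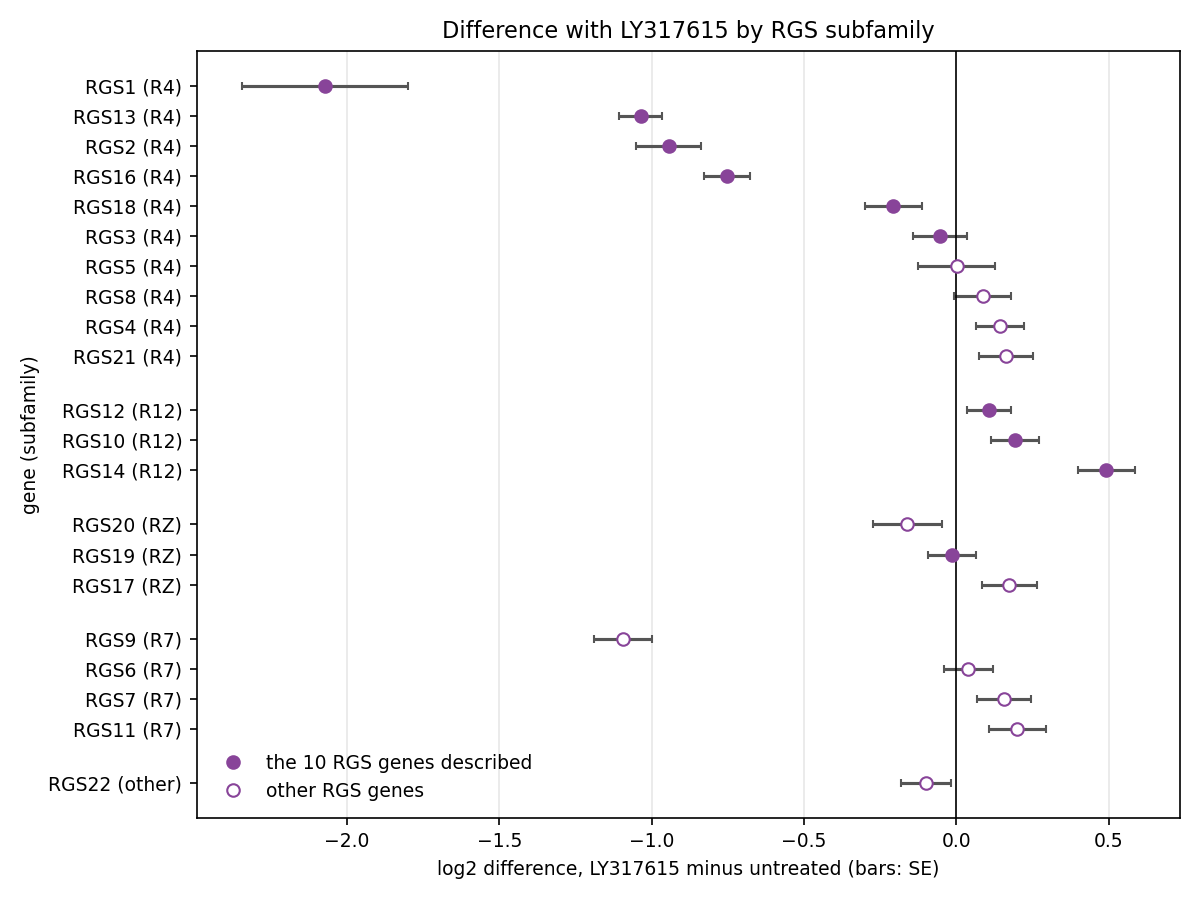
Log2 difference, LY317615 minus untreated (x axis; bars are SE), for all 21 RGS genes with a probe set of their own, grouped by subfamily (y axis); filled points are the 10 genes described and open points the other 11. RGS1, RGS13, RGS2, RGS16 and RGS9 lie between -2.07 and -0.75, and every other gene lies between -0.21 and 0.49.

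Beyond these 10 genes the array reads 11 further RGS genes, of which 1 fell and 0 rose in limma (adjusted p under 0.05). The gene that fell was RGS9 (probe set 8009277), an R7 protein known from photoreceptors and the striatum. Its log2 intensities were 6.70, 6.61 and 6.42 untreated and 5.46, 5.60 and 5.39 treated. The groups lay 0.82 apart, and the change was -1.09 ± 0.10 (SE, adjusted p = 0.000101 in limma), 2.14-fold lower and about the size of that of RGS13. R7 proteins work as pairs with the beta subunit GNB5, and RGS9 is held at membranes by RGS9BP. GNB5 and RGS9BP, named after their values were seen, differed by -0.05 ± 0.11 and 0.01 ± 0.11, and neither passed. The remaining 10 genes (RGS4, RGS5, RGS6, RGS7, RGS8, RGS11, RGS17, RGS20, RGS21 and RGS22) had untreated means of 3.04 to 5.17, and their differences ran from -0.16 to 0.20. RGS11 alone of them passed under any of the alternatives run, without treated array 1. Groups did not overlap in 3 of the 11 further genes, RGS9 lower and RGS4 and RGS17 higher. Of all genes 49.8% did not overlap.

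The partners of RGS proteins were taken as 7 lists of the G-protein cycle. With the further RGS genes they hold 106 measured genes, of which 10 rose and 18 fell. These are 26.4% called, against 35.7% of all genes, and the median difference was 0.05. By list, 34.8% of the B-cell migration receptors and 36.8% of the G-protein effectors were called, near the share of all genes. The other lists had 9.09% to 33.3% called. Among 23 measured receptors known in B-cell migration, 2 rose and 6 fell, with a median of 0.04. CXCR4, the CXCL12 receptor whose signal RGS1 and RGS13 are known to limit, fell, with a log2 change of -1.06 ± 0.09 (SE, adjusted p = 6.86e-05 in limma). CNR1, a cannabinoid receptor gene, changed by -1.33 ± 0.11, GPR18, a lymphocyte receptor gene, by -0.80 ± 0.10 and P2RY8, a receptor coupled to Gα13 that confines germinal-centre B cells, by -0.59 ± 0.07 (SE). The others that passed, named after their values were seen, were CCR7 at -1.03 ± 0.14 and GPR132 at -0.55 ± 0.09, and, upwards, CXCR5, the CXCL13 receptor, at 0.62 ± 0.10 and S1PR5 at 0.33 ± 0.08 (SE).

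G-protein subunits moved both ways. Of 13 alpha subunits 1 rose and 2 fell, with a median of 0.06. GNA13, the Gα13 gene, fell by 0.33 (SE 0.07, adjusted p = 0.00878 in limma), and GNAI3, a Gi subunit that R4 proteins act on, fell by 0.32 (SE 0.08). GNAI2, the Gi subunit most used by lymphocytes and named after its value was seen, differed by 0.23 ± 0.09 (SE) and did not pass (adjusted p = 0.0697 in limma). GNA15, a Gq-class subunit of blood cells, rose by 0.39 (SE 0.12). Of 16 beta and gamma subunits 1 rose and 2 fell, with a median of 0.02. GNG7, a gamma subunit, rose by 0.76 (SE 0.08, adjusted p = 0.000233 in limma), from 8.02 ± 0.10 to 8.78 ± 0.05 (SD, n = 3). GNGT2 and GNB1 changed by -0.26 and -0.21.

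Of 19 effectors 3 rose and 4 fell, with a median of 0.05. Those upwards, picked out once the values were known, were PLCB2 at 0.24 ± 0.07, PLCB3 at 0.24 ± 0.07, both phospholipase C genes, and PIK3R5 at 0.35 ± 0.10 (SE). Their number was 0 without untreated array 2, without untreated array 3, with equal array medians and at an adjusted p of 0.01. It was 1 without treated array 1, without treated array 3, under cyclic loess and with the replicate number as a block. Under the other alternatives it was 2 to 4. RASGRP2, an exchange factor for Rap1, changed by -0.97 ± 0.08 (SE), PIK3CG, the catalytic subunit of a kinase driven by beta-gamma subunits, by -0.74 ± 0.07, and the adenylyl cyclase genes ADCY3 and ADCY7 by -0.54 ± 0.09 and -0.31 ± 0.07. Of 9 other proteins with an RGS-like domain 1 rose and 2 fell, with a median of -0.05: AKAP10, an anchor of protein kinase A, fell by 0.44 (SE 0.10), the scaffold gene AXIN1 of the beta-catenin destruction complex fell by 0.33 (SE 0.08), and its relative AXIN2 rose by 0.35 (SE 0.09). Of 6 measured receptor kinases and arrestins 1 rose and 1 fell, with a median of 0.15. GRK5 rose by 0.40 (SE 0.10), and GRK6 fell by 0.25 (SE 0.08). Of 9 other modulators of alpha subunits 1 rose, PCP2, which carries a GoLoco motif, by 0.38 (SE 0.08), and 0 fell, with a median of -0.01.

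RGS9, CXCR4, CNR1, GPR18, P2RY8, GNA13, GNG7, RASGRP2, PIK3CG, ADCY3, AKAP10 and PCP2 passed under each of the 14 alternatives run. AXIN1 was lost without untreated array 2 and at an adjusted p of 0.01, ADCY7 after cyclic loess, and AXIN2, GRK5, GNAI3, GNA15, GRK6, GNGT2 and GNB1 under 3 to 9 alternatives; for GRK5 these include the mean of its probe sets.

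**Figure D4:**
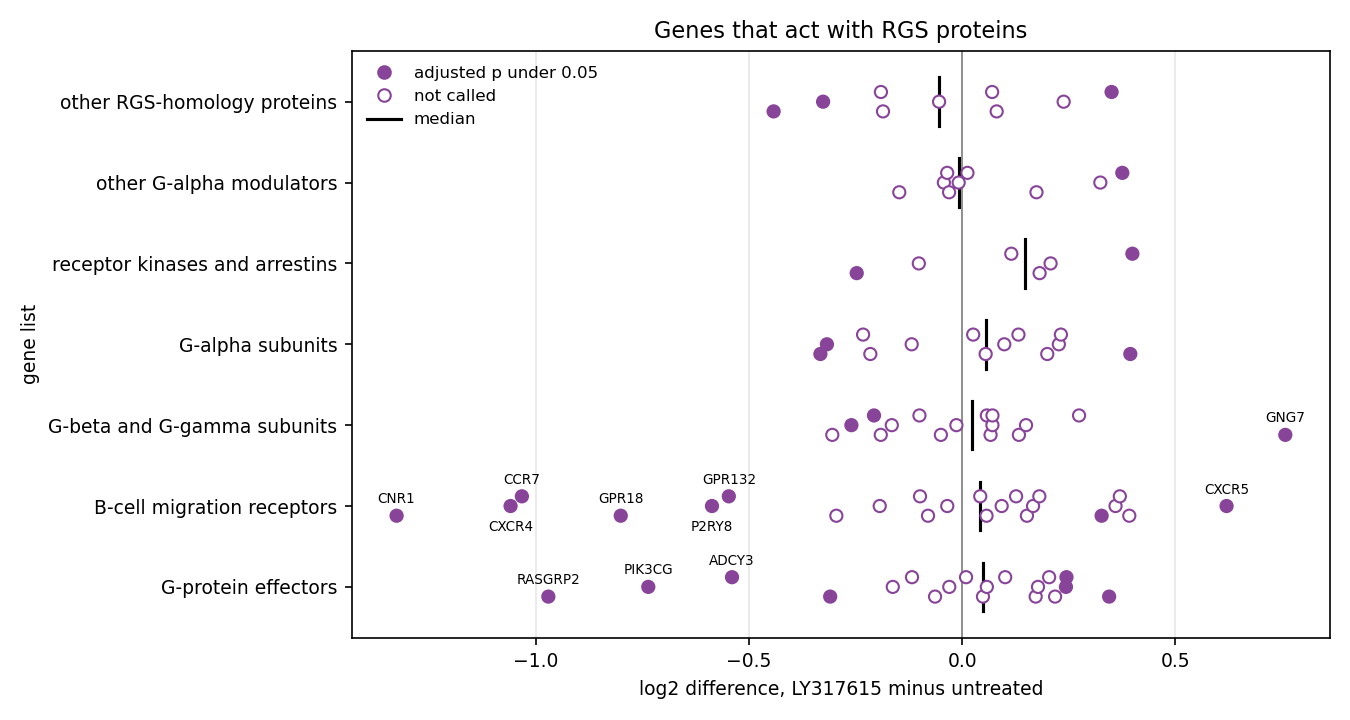
Log2 difference, LY317615 minus untreated (x axis), of every measured gene in 7 lists of the G-protein cycle (y axis); filled points passed an adjusted p of 0.05 in limma, open points did not, and black lines are list medians. List medians lie between -0.05 and 0.15, and changes of over 0.5 in size are seen among receptors and effectors and in GNG7.

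Likeness to a member was measured as the root mean square difference between 2 genes' deviations from their own untreated means over the 6 arrays. For RGS1 the nearest of the other genes were SLAMF7, a plasma-cell and lymphocyte receptor gene, at 0.31, FBXO32 at 0.34, CREBRF at 0.36 and SCIMP at 0.37. SLAMF7 had 7.58, 7.76 and 7.97 untreated and 5.96, 5.81 and 5.37 treated, with untreated array 1 the lowest of its group, as in RGS1, and treated array 2 not the highest. For RGS2 the nearest were ZBTB20 at 0.06, SLC25A26 at 0.07, DDX10 at 0.08 and ZNF326 at 0.09. For RGS13, added after its values were seen, the nearest were RAPGEF5, another exchange factor for Rap GTPases, at 0.03, MRPS22 at 0.04, and CD180, a B-cell receptor gene related to the Toll-like receptors, and CHMP1B, both at 0.05. The 6 arrays share 1 contrast, so any gene with a like difference is near by this measure, and likeness on single arrays is part of how these genes were chosen.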

How the data were processed

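RNA of 6 RL samples was measured on Affymetrix Gene 1.0 ST arrays. The deposited table holds 1 intensity for each probe set on each array, on a linear scale. The submitters' processing notes name GCOS 1.4, RMA and Affymetrix Expression Console. The order of these tools, a step back from log2 and a genome build were not given in the sources used here. Log2 was taken with no added constant and no further scaling. Of 33297 probe sets 19460 had 1 gene symbol, 1754 several and 12083 none; the brightest of a gene's probe sets gave 18417 genes. No detection calls or filter were used.

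Groups came from the sample titles. All genes were fitted with limma 3.58.1 (R 4.3.3; lmFit, eBayes without trend), two-sided, with Benjamini-Hochberg adjustment at 0.05. Errors of differences are SEs of that fit. Of all genes 2622 rose and 3946 fell, a share of 60.1% lower; with the array medians set equal 1523 rose and 4861 fell, 76.1% lower. The code was tested on simulated data. Python 3.11.15 with numpy 2.4.6, pandas 2.3.3 and matplotlib 3.10.9 made the tables and plots.

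The members and lists were chosen with earlier results of these data known. Genes named are all RGS genes, up to 4 called genes per list by smallest adjusted p, and the 4 nearest genes of RGS1 and of RGS2; others are marked as named afterwards. ARRB2, GNG10, S1PR3 and LPAR5 were not analysed here. The alternatives tried were a replicate block, each array left out in turn, equal medians, cyclic loess, the mean of probe sets, an intensity trend, array weights, no genes of the dimmest 30%, and an adjusted p of 0.01. The number of arrays limits the precision.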

Additional observations from a re-analysis of the deposited data

How the results depend on the processing

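Differences of RGS members kept their sign in all 10 alternatives run on them for RGS1, RGS13, RGS2, RGS16, RGS18, RGS14 and RGS10. RGS12, RGS3 and RGS19, each at or under 0.11 in size, turned sign in at least 1. The median over the 10 members went from -0.13 to -0.21 with the array medians set equal, a setting that moves the median of all genes by -0.08, and ran from -0.17 to -0.09 leaving out 1 array. The number of genes called ran from 4609 to 6153 leaving out 1 array and was 3586 at an adjusted p of 0.01. Genes called higher went from 2622 to 1523 with equal medians and 967 at 0.01, and ran from 1566 to 2538 leaving out 1 array, the lowest being 1566 without untreated array 2 and 1715 without untreated array 3. Genes called lower were 3946, 2619 at 0.01, and 3043 to 3677 leaving out 1 array. In the pathway lists 10 genes were higher, 6 with equal medians, 3 at 0.01 and 7 to 12 leaving out 1 array, and 18 were lower, 24 with equal medians, 23 without the dimmest 30% of genes and 14 to 16 leaving out 1 array. With the replicate number as a block 6548 genes were called (2712 higher, 3836 lower). Of the members 5 were called, as with the block, and 6 with equal medians or under cyclic loess. Deviations of same-numbered arrays correlated at -0.01, 0.09 and 0.07. Untreated arrays 2 and 3 correlated best with the treated array of their own number, and untreated array 1 with treated array 3 (0.04). Correlations this weak cannot decide whether same-numbered arrays were paired. For the named genes of the lists, 377 of 425 values kept their side of the threshold, 47 lost the call and 1 gained it.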
